A study of Mus musculus with 2 samples.

Results

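B cells of the mouse liver were chosen by their own transcripts from 2 libraries of sorted liver cells, and 194 of 12830 retained barcodes met the choice, 49 from control mice and 145 from mice with cirrhosis. A retained barcode had at least 500 UMIs (unique molecular identifiers, each 1 captured transcript), at least 300 genes and under 20% mitochondrial UMIs. A B cell had at least 3 UMIs of Cd79a, Cd79b and Ms4a1 together, at most 1 UMI of the T cell genes Cd3e, Cd3d and Cd3g, and 0 UMIs of Siglech, a gene of plasmacytoid dendritic cells. The endothelial genes Stab1, Stab2, Clec4g and Dnase1l3 together also had to stay under 0.3% of its UMIs. Of the 215 barcodes that met these limits, 21 held at least 1% Jchain UMIs, the antibody joining chain made by plasma cells, and are described apart as plasma-cell-like. The values of these genes therefore chose the cells and are given as a description only.

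The libraries came from C57BL/6 mice that all carried Cdh5-Cre and 2 copies of the mTmG reporter, under which a cell makes the red protein tdTomato until Cre removes that gene and then makes GFP (eGFP). The Cre was driven by the promoter of Cdh5, the cadherin of blood vessel endothelium. Cirrhosis was induced with inhaled carbon tetrachloride for 12 weeks, and the other mice are labelled only as controls. Livers of 3 mice of 16 weeks were pooled for each library, so each group is 1 sample, and what follows describes these 2 libraries. The livers were digested with collagenase, hepatocytes were spun out, and live GFP-positive cells were sorted before 3' single-cell sequencing. The labels title both libraries as liver ECs, and B cells were a minor part of what was sorted. No test between the groups is possible, and every interval below covers counting error only.

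B cells carry an antigen receptor made of membrane antibody and the signalling chains CD79A and CD79B. Naive B cells carry IgM and IgD, recirculate between blood and lymphoid organs under the guidance of chemokine and sphingosine receptors, and present captured antigen on MHC class II. After activation they can switch to IgG or IgA and become plasma cells, which stop making most B cell surface proteins and devote their transcripts to antibody. The healthy liver holds a small population of B cells, largely of blood-borne, IgM-bearing type.

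The octamer, written ATTTGCAT or ATGCAAAT on the other strand, is a promoter motif known from antibody genes, and 1 of the most B-cell-restricted genes of these libraries held it. Vpreb3, a chain of the pre-B receptor complex in precursors that mature mouse B cells also transcribe, had 220 CPM (counts of a gene per 1000000 UMIs of the summed cells) in the control B cells and 249 CPM in the cirrhosis B cells. In the other retained barcodes, from which the plasma-cell-like ones were left out, it had 0.236 and 0.45 CPM. Its promoter is shown because it combines the motif with the highest ratio of B cells to other barcodes; the 250 bases before the RefSeq start (GRCm38.p6, chr10:75948050-75948299, plus strand) hold the octamer, in capitals, from 45 bases upstream:
Vpreb3: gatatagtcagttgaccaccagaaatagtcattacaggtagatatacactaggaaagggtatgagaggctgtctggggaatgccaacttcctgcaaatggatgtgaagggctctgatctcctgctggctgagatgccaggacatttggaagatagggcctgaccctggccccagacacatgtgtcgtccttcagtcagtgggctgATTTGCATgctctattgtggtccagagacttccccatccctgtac
The letters of the octamer were found in 526 of 32851 mouse promoter windows of this length (1.6%). They were in 1 of 15 windows among the 20 genes highest in B cells over other barcodes, and in 0 of 13 windows among 18 B cell identity genes; genes of these lists with no window were not searched. A match to these letters is a description of the sequence and not a binding site.

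The label was checked against the cells before any comparison. Among the 16 barcodes with 3 to 5 marker UMIs, 2 control and 14 cirrhosis ones, each held Cd79b UMIs alone, with 0 of Cd79a and 0 of Ms4a1. All 16 held macrophage or neutrophil transcripts, at 873 to 1014 UMIs in the control and 191 to 1224 UMIs in the cirrhosis barcodes. None had Ighd, the heavy chain of IgD, and none had more than 2 UMIs of Igkc, the kappa light chain of antibody. These 16 barcodes thus went against the B cell label. No barcode had 6 marker UMIs. The 178 with 7 or more, 47 and 131, all held Cd79a, and 165 of them held Ighd, 46 and 119. Just inside the limit of 3 marker UMIs lay 1 control and 9 cirrhosis barcodes, and just outside, at 2 UMIs, lay 6 and 30, whose median macrophage counts were 152 and 324 UMIs.

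Some barcodes with many B cell UMIs also held RNA of other cells. Of the 47 control and 131 cirrhosis barcodes with 7 or more marker UMIs, 5 and 22 held at least 3 macrophage or neutrophil UMIs. With the 16 barcodes of 3 to 5 marker UMIs counted in, 7 of 49 control (14.3%) and 36 of 145 cirrhosis B cells (24.8%) did. Hepatocyte transcripts passed 1% of UMIs in 1 control and 8 cirrhosis barcodes. Either sign marked 8 control B cells (16.3%, exact 95% interval 7.32 to 29.7%) and 41 cirrhosis B cells (28.3%, 21.1 to 36.3%). The share was thus higher in the cirrhosis library by the point values, with overlapping intervals. These counts include the 16 barcodes with 3 to 5 marker UMIs. The summed macrophage list stood at 7329 CPM in all control B cells and 9715 CPM in all cirrhosis B cells. A cleaner set, called unmixed B cells here, had neither sign and at most 10000 UMIs, which left 39 control and 102 cirrhosis barcodes. In it the macrophage list stood at 62.1 and 109 CPM, the hepatocyte list at 279 and 511 CPM, and 9 of 10 T cell genes were at 0 UMIs in each library. The endothelial list was not reduced by this step, at 1117 and 904 CPM, and 76.9% of the control and 45.1% of the cirrhosis unmixed B cells held at least 3 of its UMIs. The unmixed set was defined after these values were seen. List medians and counts of genes past 2-fold are given for both sets. Many single genes are given for the unmixed set alone, and where both values are given the ratio often differed between the sets.

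**Figure D1:**
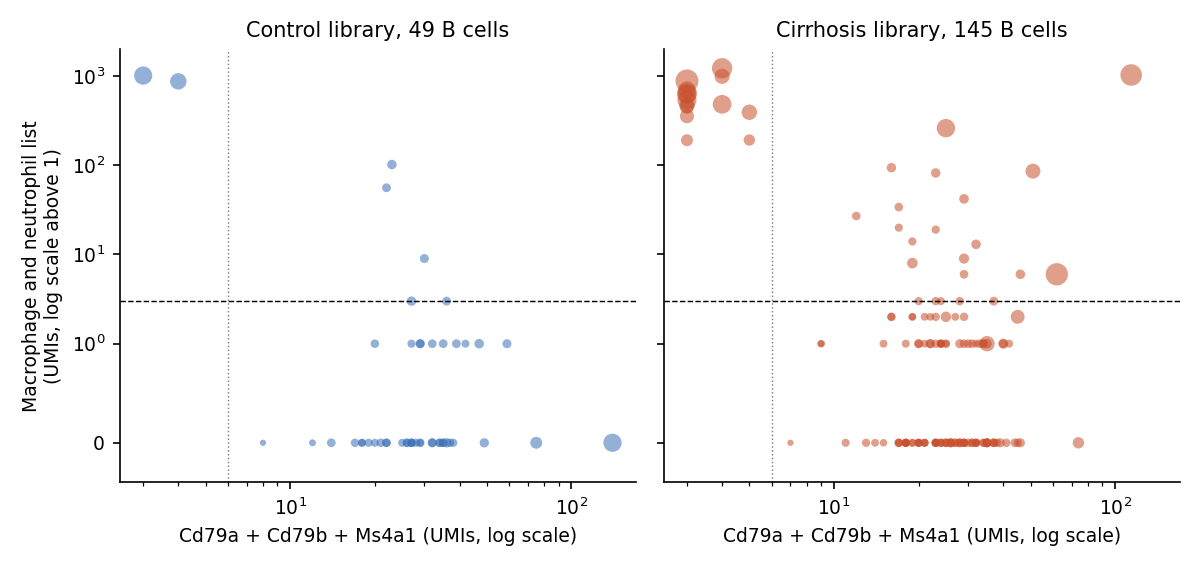
Macrophage and neutrophil UMIs (vertical, log scale above 1) against the summed UMIs of Cd79a, Cd79b and Ms4a1 (horizontal, log scale) for each of 49 control and 145 cirrhosis B cells; larger points have more UMIs, the dashed line is at 3 macrophage UMIs and the dotted line at 6 marker UMIs. The 2 control and 14 cirrhosis barcodes left of the dotted line all lie at 191 macrophage UMIs or more, apart from the main body of B cells.

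Depth was like between the libraries. B cells had a median of 4332 UMIs (1195 to 28300) in the control library and 4080 UMIs (1237 to 46114) in that of cirrhosis, and medians of 1665 and 1602 genes. Unmixed B cells had medians of 4241 and 3830 UMIs, for totals of 161139 and 402816 UMIs, and the share of mitochondrial UMIs had medians of 7.78% and 7.56% over all B cells. Of 17 barcode sequences found in both libraries, 1 belonged to a cirrhosis B cell and 1 to a control plasma-cell-like barcode.

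B cells made up 0.948% of retained barcodes in the control library (49 of 5168, exact 95% interval 0.702 to 1.25%) and 1.89% in the cirrhosis library (145 of 7662, 1.6 to 2.22%). Unmixed B cells made up 0.755% (0.537 to 1.03%) and 1.33% (1.09 to 1.61%), so the share was higher in the cirrhosis library in both sets. T cells, defined by at least 3 Cd3 UMIs, made up 4.14% and 2.62%. Sinusoidal endothelial cells, defined by the 4 endothelial genes at 1% of UMIs or more, made up 48.5% and 9.28%. Those genes had a median of 0.998% of UMIs over retained control barcodes and 0.405% over retained cirrhosis barcodes. The endothelial share thus also depends on the level of the 4 genes and is not a count of all endothelial cells. All of these shares are of sorted GFP-positive cells. The gate, the spin and the smaller share of barcodes past the endothelial limit can each set them, and their part was not tested.

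The genes that set these cells apart were those of the B cell programme. The measure was the lower of the 2 libraries' ratios of CPM in B cells to CPM in other retained barcodes. Plasma-cell-like barcodes were left out of both sides. They held some of the same transcripts. Most of the control ones held Vpreb3, at up to 6 UMIs each, and 1 held 23414 UMIs of Iglc2. The ratios and their order therefore hold only without them. The members of the choosing rule were among them by construction, with Cd79a at 449 times, Ms4a1 at 322 times and Cd79b at 158 times. The other genes at the top were not used to choose the cells. Vpreb3 led at 553 times. Fcmr, the receptor for secreted IgM, stood at 376 times, and Fcer2a, the low-affinity IgE receptor CD23, at 341 times. Of the transcription factors, Pax5, which holds B cell identity, stood at 213 times, Pou2af1, a coactivator that binds with octamer factors, at 177 times, and Ebf1, which specifies the lineage, at 143 times. Ighd stood at 206 times, Tnfrsf13c, the receptor for the survival factor BAFF, at 92.9 times, and H2-DMb2, which edits MHC class II peptides, at 79.2 times. Siglecg and Cd22, inhibitory receptors of the antigen receptor, stood at 54.1 and 40.7 times. Bank1, a signalling adaptor, stood at 50.7 times, the lambda chain gene Iglc2 at 68.1 times and H2-Ob, a brake on peptide loading, at 44.3 times. Also among the 20 highest, Gm31243 at 174 times and Gm8369 at 56.7 times, are predicted genes with no role given in the files used here.

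Levels of the receptor genes were close between the libraries once mixed barcodes were left out. In unmixed B cells Cd79a (chr7:24897381-24902197, plus strand, GRCm38) had 4226 CPM in control and 3888 CPM in cirrhosis cells. Cd79b (chr11:106311341-106314762, minus strand) had 1899 and 1698 CPM, and Ms4a1 (chr19:11249675-11266241, minus strand), which encodes CD20, had 850 and 1058 CPM. Ighm, the heavy chain of IgM, had 3630 and 3056 CPM, Ighd 1111 and 1100 CPM, and Igkc 12101 and 10608 CPM. The widest of these 6 differences on the log2 scale was that of Ms4a1, at 0.32 (0.03 to 0.60). Over all 194 B cells the same genes read lower in cirrhosis, with log2 ratios of -0.61 for Cd79a and -0.81 for Cd79b, beside the larger share of macrophage RNA there, whose part was not tested. Igkc was the most affected, at 17890 and 5413 CPM, and 2668 of its 5053 control UMIs lay in 1 barcode.

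**Figure D2:**
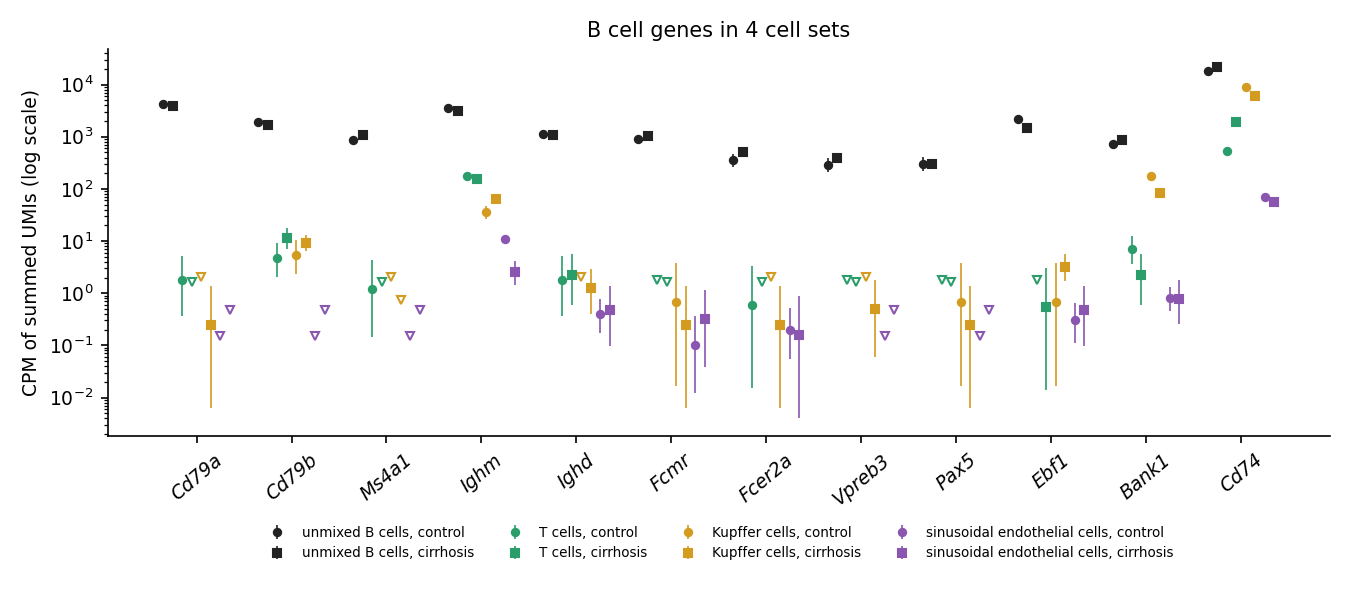
Levels of 12 B cell genes in summed unmixed B cells, T cells, Kupffer cells and sinusoidal endothelial cells of both libraries, in CPM on a log scale, with exact 95% counting intervals as bars; open triangles mark 0 UMIs and stand at the level of 3 UMIs. Vpreb3 stood at 292 and 392 CPM in unmixed B cells, and Cd79a, which chose the cells, at 4226 and 3888 CPM.

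By heavy chain, nearly all were unswitched. Among B cells with at least 3 heavy-chain UMIs, IgM or IgD led in 45 of 46 control barcodes (97.8%, 88.5 to 99.9%) and in 129 of 131 cirrhosis barcodes (98.5%, 94.6 to 99.8%). Ighm and Ighd were both detected in 39 of 39 control and 96 of 102 cirrhosis unmixed B cells. The 1 control exception was led by IgA, and the 2 cirrhosis exceptions were led by Ighg2b and Ighg3, the heavy chains of IgG2b and IgG3. Lambda light chain led in 1 of 47 control B cells with 10 or more light-chain UMIs (2.13%) and in 8 of 130 cirrhosis B cells (6.15%). Antibody RNA outside B cells sets a limit to such reads, since Igkc was detected in 42.1% of control and 17.4% of cirrhosis T cells, with median depths of 6571 and 6080 UMIs. At 79.1 and 23.7 CPM, the level in T cells was far under that in B cells.

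Over all B cells, 211 of 2955 genes with a mean of at least 50 CPM were at least 2-fold higher in the cirrhosis library (7.14%) and 86 were at least 2-fold lower (2.91%). Together 297 genes (10.1%) were past 2-fold. Among unmixed B cells 76 of 2719 genes were 2-fold higher (2.80%) and 104 were 2-fold lower (3.82%), 6.62% in all. At this minimum of 50 CPM the split thus turned from mostly higher to mostly lower. It did not turn among genes from 20 CPM in the same set, where 8.50% were 2-fold higher and 7.51% lower. With barcodes holding macrophage, neutrophil or hepatocyte transcripts left out but deep ones kept, 98 genes from 50 CPM were higher and 74 lower. The turn therefore depended on the cells kept and on the minimum level. The 12 highest ratios over all B cells were those of Trem2, Ms4a7, Spp1, Ednrb, Jam2, Ahsg, Ccr2, Cd63, Cx3cr1, Cd36, Timp3 and Mmp12. Trem2, a receptor of scar-associated macrophages, stood at 3.54 and 268 CPM over all B cells, and at 0 and 2.48 CPM in unmixed B cells. Spp1, osteopontin, stood at 10.6 and 342 CPM, with 264 of its 351 cirrhosis UMIs in 1 barcode. All 12 had a mean under 50 CPM in unmixed B cells, where 5 were still at least 2-fold higher and 5 had at most 5 UMIs.

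The 12 lowest ratios over all B cells were those of Igha, Cxcl13, Timd4, C6, Hmox1, Ccl24, Gbp2b, Cd163, Tsc22d3, Dmpk, S100a10 and S1pr4. Several are genes of resident macrophages, among them Timd4, a receptor for dying cells, and Cd163, a haemoglobin scavenger receptor. Igha, the heavy chain of IgA, stood at 4564 and 22.4 CPM, and 1285 of its 1289 control UMIs came from 1 barcode. Of the 12 genes, 9 had a mean under 50 CPM in unmixed B cells, and 1 was still at least 2-fold lower there with a mean above it, Tsc22d3.

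Tsc22d3 (chrX:140539528-140600659, GRCm38), which encodes GILZ, a leucine zipper protein induced by glucocorticoids, was at 1043 CPM in control and 295 CPM in cirrhosis unmixed B cells. It was detected in 37 of 39 and in 57 of 102 of them. Its log2 ratio was -1.82 (-2.17 to -1.47), against -2.06 over all B cells. T cells of the same libraries had 211 and 122 CPM, a log2 ratio of -0.79 (-1.04 to -0.54). The gene was thus lower in the cirrhosis library in both lymphocyte types, with the lower interval bound of T cells above the upper bound of B cells.

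Of the 24 lists compared, the one furthest from 0 in unmixed B cells held the immediate-early and AP-1 genes, which cells transcribe within minutes of a stimulus. Among 18 measured members in unmixed B cells, all 18 were lower in the cirrhosis library, beside 49.6% of all genes from 20 CPM, the level from which list members were counted. At least 2-fold lower were 8 of them, beside 7.51% of those genes, and the median log2 ratio was -0.88 beside 0 over all genes. Over all B cells 18 of 19 were lower, beside 44.8% of all genes, and 6 at least 2-fold, beside 3.96%. The median was -0.69 there, beside 0.071 over all genes. Of the AP-1 subunits, Fos (chr12:85473890-85477273, GRCm38) had 683 and 156 CPM in unmixed B cells, a log2 ratio of -2.13 (-2.60 to -1.67), and was detected in 30 of 39 and 32 of 102 cells. Junb had 1607 and 514 CPM (-1.65, -1.92 to -1.38). Jund had 2079 and 1207 CPM (-0.79), and Jun differed less, at 348 and 266 CPM (-0.39, -0.87 to 0.11). Fos and Junb were thus the AP-1 genes with the widest difference. In all 194 B cells Fos was at 790 and 498 CPM (-0.66) and Jun turned to a ratio of 0.29, beside the macrophage RNA of that set.

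Other members of the group lay on the same side. Dusp1, a phosphatase that switches off MAP kinases, had 254 and 64.5 CPM (-1.98, -2.75 to -1.24), and Dusp2, its lymphocyte relative, had 962 and 392 CPM (-1.29). Nr4a1, which encodes the receptor Nur77 and follows antigen receptor signalling, had 192 and 57.1 CPM (-1.75, -2.60 to -0.93). Egr3, a transcription factor of the same response, had 186 and 74.5 CPM (-1.32). Zfp36, which destabilises cytokine messages, had 329 and 139 CPM (-1.24), and Cd69, a surface protein that holds lymphocytes in tissue, had 490 and 209 CPM (-1.23). Btg2, an antiproliferative gene, had 509 and 285 CPM (-0.83), and Ppp1r15a, which relieves the translational stress response, had 230 and 134 CPM (-0.78). All 8 genes of this paragraph had intervals below 0.

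Per barcode, the immediate-early list took a median of 0.993% of UMIs in control unmixed B cells (0.42 to 2.81%) and 0.528% in cirrhosis unmixed B cells (0.0505 to 1.46%). The groups overlapped. T cells showed medians of 1.0 and 0.407%. The list was also lower in the cirrhosis library in other cells, with medians of log2 ratios of -0.86 in T cells, -1.80 in Kupffer cells (at least 5 UMIs of Clec4f, Vsig4, Cd5l and Timd4) and -2.25 in sinusoidal endothelial cells. Some members differed by cell type: Nr4a1 had a ratio of -0.15 (-0.68 to 0.37) in T cells, and Klf2, a transcription factor of lymphocyte quiescence and homing, was at -0.93 (-1.14 to -0.73) in unmixed B cells and 0.00 (-0.13 to 0.14) in T cells. Median mitochondrial shares of B cells, a sign of RNA quality, were 7.78 and 7.56%, as above. They were 5.99 and 6.55% in T cells and 6.46 and 7.36% in sinusoidal endothelial cells. In Kupffer cells they were unlike, at 12.5% in control and 7.17% in cirrhosis, and the part of this in their ratio was not tested.

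**Figure D3:**
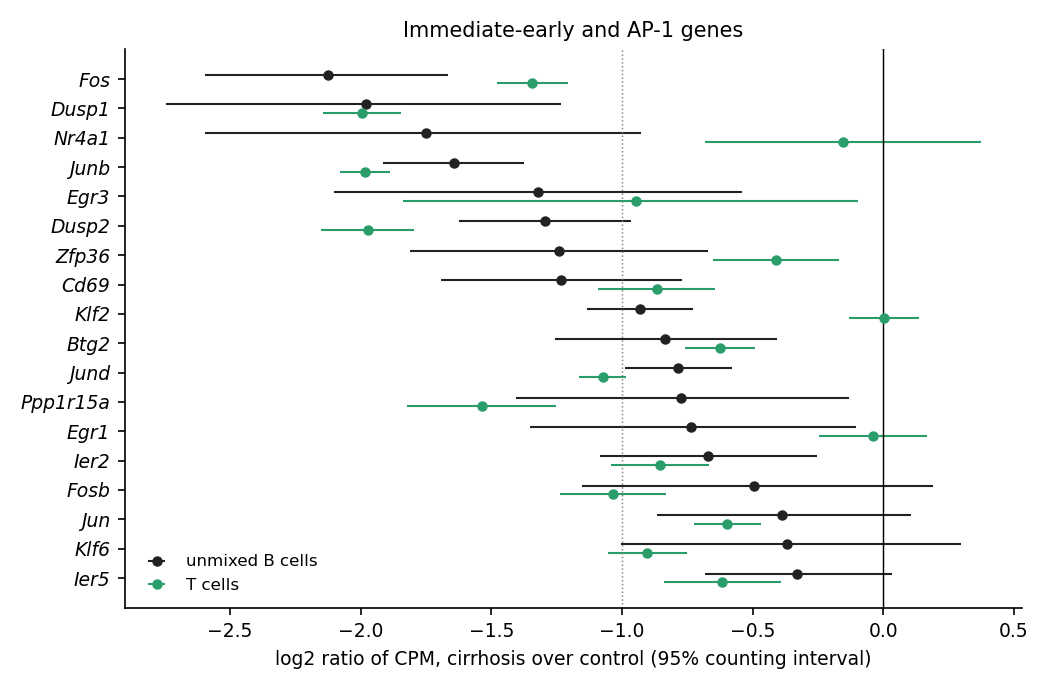
Log2 ratios of CPM, cirrhosis over control, of 18 immediate-early and AP-1 genes in unmixed B cells and T cells, with 95% counting intervals; the dotted line marks 2-fold lower. All 18 B cell points lie left of 0, from Fos at -2.13 upwards, and Klf2 lies at 0.00 in T cells.

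**Figure D4:**
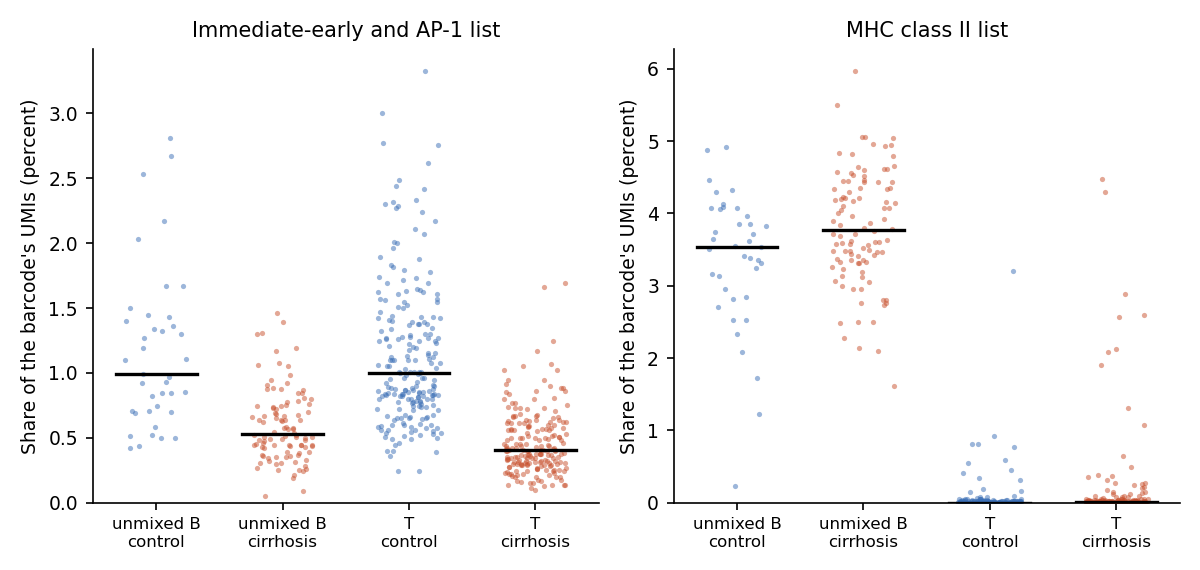
Share of each barcode's UMIs (percent) taken by the immediate-early list and by the MHC class II list, for unmixed B cells and T cells of each library. The immediate-early medians of B cells are 0.993 and 0.528%, and the MHC class II medians are 3.53 and 3.77%.

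The cAMP response element, written TGACGTCA on both strands, is a promoter motif bound by CREB factors and known from immediate-early genes. It was in 508 of 32851 promoter windows (1.55%) and in 3 of 15 windows of the immediate-early list, those of Dusp1, Btg2 and Ppp1r15a. A pair of these promoters is shown, with the motif in capitals, as examples of the motif in its promoter context. Ppp1r15a was lower to an extent like that of Btg2, and Dusp1 was lower by more. A link between the motif and the change was not examined. They are the 250 bases before the RefSeq starts (GRCm38.p6) of Dusp1, chr17:26508473-26508722, minus strand, with the motif starting 143 bases upstream, and of Btg2, chr1:134079156-134079405, minus strand, with the motif 166 bases upstream:
Dusp1: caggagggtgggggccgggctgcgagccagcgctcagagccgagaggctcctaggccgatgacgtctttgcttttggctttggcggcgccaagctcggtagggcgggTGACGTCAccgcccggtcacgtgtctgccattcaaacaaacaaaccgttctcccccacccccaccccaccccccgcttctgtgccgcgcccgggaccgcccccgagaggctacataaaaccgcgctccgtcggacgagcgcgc
Btg2: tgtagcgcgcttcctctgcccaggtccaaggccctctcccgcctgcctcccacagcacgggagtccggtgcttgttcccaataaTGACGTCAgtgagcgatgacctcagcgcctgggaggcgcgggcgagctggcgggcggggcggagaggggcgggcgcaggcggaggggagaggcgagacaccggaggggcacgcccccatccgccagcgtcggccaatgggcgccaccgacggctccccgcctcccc

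Of the chemokine receptor and homing genes, 10 of 15 were lower and 5 higher in unmixed B cells of the cirrhosis library, beside 49.6% of all genes lower. At least 2-fold lower were 2 of them, beside 7.51% of all genes, and 1 was at least 2-fold higher, beside 8.50%. In unmixed B cells Cxcr4, the receptor for the retention chemokine CXCL12, had 341 and 99.3 CPM (-1.78, -2.41 to -1.17), while T cells had 31.5 and 39.2 CPM (0.31, -0.22 to 0.86). Gpr183, an oxysterol receptor that positions B cells in follicles, had 385 and 174 CPM (-1.15, -1.66 to -0.63), and Ccr7, the receptor for lymph node entry, had 348 and 199 CPM (-0.81, -1.32 to -0.29). In T cells Gpr183 and Ccr7 had ratios of 1.17 and 1.30. These 3 members were thus lower in B cells and not in T cells by the point values. Klf2, above, had 2209 and 1157 CPM in unmixed B cells. Other members differed less: S1pr1, the receptor for exit into lymph, had 174 and 134 CPM (-0.37, -1.06 to 0.34), and Cxcr5, the follicle receptor, had 86.9 and 107 CPM. Over the list of chemokine receptors and homing genes the median was -0.40 in all B cells and -0.13 in unmixed B cells.

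Ccr6 went the other way. This receptor for CCL20 had 24.8 CPM in control and 122 CPM in cirrhosis unmixed B cells (2.29, 0.84 to 4.22), and was detected in 4 of 39 and 36 of 102 cells. In all 194 B cells it stood at 21.2 and 59.5 CPM (1.49, 0.28 to 2.99). Few control UMIs lie behind this ratio, as its wide interval shows.

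Complement and BAFF receptors were also higher. Cr2 (chr1:195136811-195176716, minus strand, GRCm38), the complement receptor CD21 of the coreceptor complex, had 74.5 and 199 CPM (1.41, 0.53 to 2.43), in 10 of 39 and 49 of 102 cells. Over all B cells it had 60.2 and 116 CPM (0.95, 0.21 to 1.77), and after each B cell was thinned to 1000 UMIs it was seen in 10.2% of control and 17.2% of cirrhosis cells, against 0% of T cells. Cr2 and Fcer2a were found together in 7 control (17.9%) and 37 cirrhosis (36.3%) unmixed B cells. Fcer2a itself had 354 and 511 CPM (0.53, 0.10 to 0.98). Tnfrsf13c, the BAFF receptor, had 242 and 432 CPM (0.84, 0.33 to 1.38), and Tnfrsf13b, the receptor TACI for BAFF and APRIL, had 130 and 251 CPM (0.94, 0.26 to 1.70). Without that step both had ratios near 0, at 0.15 and 0.02, so their difference was seen in the unmixed set alone. Cd81, another coreceptor member, had 161 and 310 CPM in unmixed B cells (0.94, 0.33 to 1.61).

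Antigen presentation was at a like level in both libraries. Cd74, the invariant chain of MHC class II, was at 18301 and 21449 CPM in unmixed B cells (0.23, 0.17 to 0.29). The classical chains H2-Aa and H2-Eb1 differed by 0.08 and 0.10, and H2-Ab1 by 0.23. Of 10 measured MHC class II genes 8 were higher in cirrhosis, beside 50.4% of all genes. None reached 2-fold, beside 8.50% of all genes higher and 7.51% lower, and the list median was 0.16. Over all B cells the median was -0.04. H2-DMb1, a peptide editor, had 137 and 231 CPM (0.76, 0.08 to 1.5), and Ciita, the master activator of the class, had 316 and 492 CPM (0.64, 0.19 to 1.11). H2-Ob had 546 and 484 CPM and H2-Oa, its partner, 341 and 365 CPM. Per barcode the list took medians of 3.53% of UMIs (0.238 to 4.92%) and 3.77% (1.62 to 5.97%), with wide overlap. Cd83, a surface protein of activated B cells that stabilises MHC class II, had 149 and 295 CPM (0.99, 0.35 to 1.69). Within class I, whose list median was -0.08, H2-Q7 was lower at 478 and 218 CPM (-1.13, -1.59 to -0.67), and T cells had a like ratio for it, -0.95; near-identical class I genes can share its reads.

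Identity genes were lower in cirrhosis over all B cells and evenly split in the unmixed set. Of 18 B cell identity genes, 16 were lower in cirrhosis over all B cells (median -0.29), beside 44.8% of all genes. In unmixed B cells 10 of 18 were higher (median 0.10), beside 50.4% of all genes. None was past 2-fold, beside 8.50% of all genes higher and 7.51% lower. Ebf1 was the exception among factors of identity in the unmixed set, at 2209 and 1492 CPM (-0.57, -0.76 to -0.37), while Pax5 was at 304 and 298 CPM. Fcrla, an intracellular Fc receptor-like protein, was at 341 and 251 CPM (-0.45, -0.93 to 0.06), and Ralgps2, a nucleotide exchange factor, at 726 and 544 CPM (-0.42). The antigen receptor signalling list had a median of -0.15 over all B cells, with 11 of 16 lower, beside 44.8% of all genes. In unmixed B cells its median was 0.03, with 9 of 16 higher, beside 50.4% of all genes. Past 2-fold in unmixed B cells were Cr2, above, and Pik3cd, the lymphocyte PI3-kinase subunit, at 86.9 and 42.2 CPM (-1.04, -2.15 to 0.09). That is 1 of 16 higher and 1 of 16 lower, beside 8.50 and 7.51% of all genes. In the same list Syk, the kinase that CD79 chains recruit, was at 484 and 303 CPM (-0.68, -1.10 to -0.25), and Blk, a Src-family kinase, at 168 and 132 CPM (-0.35, -1.04 to 0.38). Irf4, a factor of activation and plasma cell fate, was at 112 and 22.3 CPM (-2.32, -3.66 to -1.09), and Bach2, which holds back plasma cell fate, at 248 and 166 CPM (-0.58, -1.16 to 0.03). The list of B cell transcription factors had medians of -0.49 and -0.13.

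Lists of subsets and states differed between the sets, and many rested on few genes or barcodes. Interferon-stimulated genes had a median of 0.77 over all B cells, with 14 of 17 higher and 7 of them at least 2-fold, beside 10.6% of all genes. In unmixed B cells the median was 0.06, with 7 of 11 higher and 1 of them at least 2-fold, beside 8.50% of all genes. Isg15, a ubiquitin-like interferon product, stood at 3.54 and 50.7 CPM over all B cells and at 0 and 19.9 CPM in unmixed B cells. Cell cycle genes had medians of 0.83 and 0.06, with 6 of 6 higher over all B cells. Beside these counts, 55.2% of all genes were higher over all B cells and 50.4% in unmixed B cells. The follicular list stood at -0.54 and -0.11, the marginal zone list at 0.40 and -0.10, the germinal centre list at 0.28 and -0.67, and the age-associated list at -0.18 and 0.08. Transitional and precursor genes had a median of 2.85 over all B cells from 2 measured genes, Cd93 and Sox4, and none was measured in unmixed B cells. The B-1 list stood at -1.47 and, from 1 gene, at 0.43, and the plasma cell list at -1.20 and -0.61. Over all B cells the plasma cell list counted Jchain, which the choice of cells held under 1% of UMIs, and 1 control barcode held 150 of its UMIs. Its median is thus a description of cells already cleared of barcodes rich in Jchain.

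Of 10 measured NF-kB targets, 9 had higher values in cirrhosis over all B cells (median 0.27, with a counting interval of its middle genes from -0.20 to 0.77) and 8 in unmixed B cells (median 0.45, -0.53 to 1.55), beside 55.2 and 50.4% of all genes. Both intervals span 0, and scaling by the median of ratios gave 7 of 10 and 0.17 over all B cells. Costimulatory genes stood at -0.02 and 0.14, cytokines and their receptors at 0.08 and 0.31, survival genes at 0.01 and 0.15, and inhibitory receptors at -0.08 and -0.20. Ltb, the lymphotoxin that B cells use to organise lymphoid tissue, was at 738 and 991 CPM in unmixed B cells (0.42, 0.13 to 0.73) and read the other way over all B cells (-0.45). Isotypes and light chains stood at -0.62 and 0.19, MHC class I at -0.10 and -0.08, heat shock genes at -0.11 and -0.38, and glycolysis genes at 0.40 and 0.24.

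The list members furthest from 0 over all B cells were often genes that macrophages also use. Fcgr2b, the inhibitory IgG receptor of B cells, macrophages and liver endothelium, stood at 145 and 321 CPM over all B cells (1.14) and had a ratio of -0.15 in unmixed B cells. Bcl2a1b, a survival gene of leukocytes, stood at 42.5 and 174 CPM (2.03). Cd9, a tetraspanin of marginal zone B cells, stood at 17.7 and 155 CPM over all B cells and at 24.8 and 34.8 CPM in unmixed B cells (0.49, -1.19 to 2.55). Spn, which encodes CD43 and marks B-1 cells, and Cxcr3, a chemokine receptor of memory cells, had 12 and 13 control UMIs, all in 1 barcode. Neither had a control UMI in unmixed B cells.

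By rank alone, the 12 lowest ratios in unmixed B cells were those of Kdm6b, Pim1, Irf4, Ifnar1, Ggps1, Fos, Zdhhc6, Gadd45a, Dusp1, Ino80, Pear1 and Tsc22d3. The 12 highest were those of Abcf1, Ccr6, Tm6sf1, Acap1, Dpm1, Cops9, Anxa6, AI467606, Pmf1, Zfp91, Vasp and Pop5; both groups were picked after the unmixed set was seen. Kdm6b, a histone demethylase induced by stimuli, was at 118 and 14.9 CPM (-2.98, -4.60 to -1.6), and T cells also had less of it, at 82.7 and 31.5 CPM. Pim1, a kinase downstream of cytokine receptors, was at 105 and 17.4 CPM (-2.60, -4.11 to -1.26). On the higher side Abcf1, a factor of translation, was at 18.6 and 94.3 CPM (2.34, 0.69 to 4.68), with 3 UMIs behind the control level. Over all B cells Pim1 and Abcf1 had ratios of -0.31 and 0.12, so both stood out in the unmixed set alone.

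Genes of other cell types led the variation among all B cells, and mitochondrial genes led it among unmixed B cells. By the variance of Pearson residuals, where counting noise alone gives about 1, the most variable genes over all B cells were Apoe at 154, Alb at 60.7 and Lyz2 at 51.9, which are macrophage and hepatocyte genes, and then Cd74 at 39.1. In unmixed B cells the values were far smaller, led by the mitochondrial genes mt-Co1 at 9.34, mt-Co3 at 7.68, mt-Atp6 at 6.89 and mt-Co2 at 6.0. Mitochondrial UMIs, a sign of cell quality, ranged from 4.9 to 17.1% in control and from 0.97 to 19.8% in cirrhosis unmixed B cells. Cd74 came next at 5.9, and Jun at 4.48 and the reporter eGFP at 4.14 were also in the 15 highest. The median gene stood at 1.04 over all B cells and 0.993 in unmixed B cells. Genes detected in as few as 5% of cells were counted, and the value was about the same with mixed barcodes as without. It therefore says little about how much a typical gene varied.

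The reporter was checked in the B cells, since they had been sorted as GFP-positive. In unmixed B cells eGFP, listed in the files as eGFP_mTmG, stood at 130 CPM (80.7 to 199) for the control and 99.3 CPM (70.9 to 135) for cirrhosis, and was detected in 10 of 39 and 17 of 102 cells. Sinusoidal endothelial cells had 1718 and 1519 CPM, with eGFP in 97.5 and 97.7% of cells. T cells had 245 and 448 CPM. B cells were thus low in reporter RNA beside the endothelial cells of the same sort. The unrecombined reporter tdTomato stood at 43.4 and 47.2 CPM in unmixed B cells and was detected in 15.4 and 15.7% of them, against 0.439 and 0.563% of sinusoidal endothelial cells, whose depth was larger, with medians of 7118 and 8971 UMIs. Neither reporter was detected in 24 of 39 control and 71 of 102 cirrhosis unmixed B cells, and at least 3 eGFP UMIs were found in 3 and 2. At these depths a barcode without a reporter UMI cannot be told apart from a cell with low reporter RNA.

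**Figure D5:**
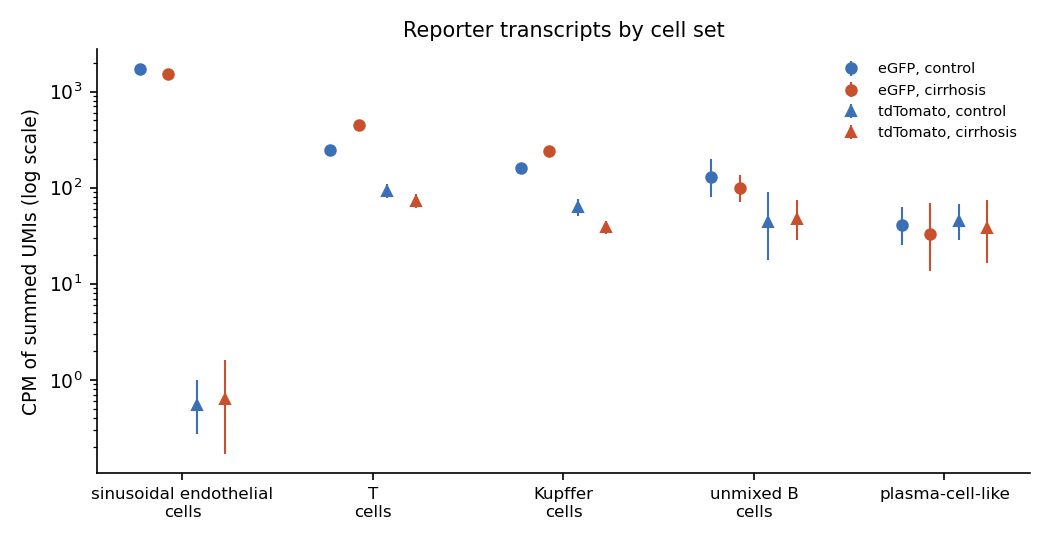
Reporter transcripts eGFP (eGFP_mTmG) and tdTomato in summed cells of each set and library, in CPM on a log scale with exact 95% counting intervals. Unmixed B cells stand at 130 and 99.3 CPM of eGFP and at 43.4 and 47.2 CPM of tdTomato, and sinusoidal endothelial cells at 1718 and 1519 CPM of eGFP.

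The plasma-cell-like barcodes, 13 of the control (0.252%, 0.134 to 0.43%) and 8 of the cirrhosis library (0.104%, 0.0451 to 0.206%), were deep and full of antibody RNA. They had medians of 39927 UMIs (21874 to 54301) and 29811 UMIs (3353 to 52103). Antibody genes took a median of 68.1% of UMIs (16.8 to 76.1%) and 53.5% (25.7 to 75%), against 1.96 and 1.78% in unmixed B cells. Jchain, which chose them, stood at 55764 and 47829 CPM. Genes the rule did not use matched the plasma cell type: Sdc1, the surface proteoglycan CD138, was found in 13 of 13 and 6 of 8, Xbp1, the factor of the secretory programme, stood at 1197 and 1828 CPM, and Mzb1, an antibody-folding chaperone, at 2412 and 1771 CPM. Derl3, which clears misfolded protein from the endoplasmic reticulum, stood at 372 and 171 CPM, and Tnfrsf17, the APRIL receptor BCMA, at 203 and 52.2 CPM. Pax5, Ighd and Cd22 were at 0 UMIs in both libraries, which allows up to 5.87 and 14.2 CPM. Ms4a1 was at 5.87 and 19.0 CPM.

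By heavy chain, IgA led in 11 of 13 control and 4 of 8 cirrhosis plasma-cell-like barcodes. IgM led in 2 and 1, and IgG in 0 and 3, 1 each of Ighg1, Ighg2b and Ighg2c. With so few barcodes these shares are loosely bounded. No antibody segment pair was seen again: each of the 12 control and 6 cirrhosis barcodes with a kappa variable segment of at least 3 UMIs led with a different one, and the 11 and 3 pairs of heavy and kappa segments that could be read were all different. Variable segments share sequence, so single assignments are uncertain. Of the 8 cirrhosis barcodes 5 held at least 3 macrophage UMIs, at most 439, so mixture reached this set too.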

How the data were processed

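UMI counts per gene and barcode were deposited for 2 libraries, 1 per group; per the submitters' processing notes the authors used Cell Ranger and mm10, with no version given in the sources used here. The control file held 5642 barcodes and the cirrhosis file 8327, none under 500 UMIs, and 5168 and 7662 were retained. Python 3.11.15, numpy 2.4.6, scipy 1.17.1, pandas 2.3.3 and matplotlib 3.10.9 were used. Counts were summed over the cells of a set and divided by their total (CPM); log2 ratios are cirrhosis over control, with exact 95% intervals conditional on the summed UMIs. With 1 library per group no test was made, and a ratio against 0 counts used a floor of 3. Counting was checked on simulated data. Ratios were counted for genes with a mean of at least 50 CPM, and list members from 20 CPM.

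No doublet caller was run: UMIs of other cell types marked mixed barcodes. Cell types were rebuilt from marker genes, since the files give no annotation. The members, the 34 gene lists and the comparisons were chosen with earlier results of these data known. Named genes were the 12 highest and 12 lowest ratios, the 3 largest of each list, members of the identity, subset and MHC class II lists, the 20 genes highest over other barcodes and the 15 most variable; the unmixed set, its genes and further list members were named after their values were seen. Variable segments were left out of ranks. A few genes that the rule names are not reported here. Gene positions are from GENCODE vM21, promoters from RefSeq. Alternatives changed the marker minimum, filters, scaling, weights and the cells kept.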

Additional observations from a re-analysis of the deposited data

How the results depend on the processing

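No paired analysis was possible because each group is 1 library, and no replicate could be left out. The 24 list medians, the shares, the counts of genes and the named ratios were recomputed; values below are log2 medians or ratios unless said, and the cause of each shift was not tested. A total without immunoglobulin genes and a minimum of 1000 UMIs moved no named ratio past its counting interval. With at least 2 marker UMIs the cirrhosis share was 2.28%, and medians were -0.88 for isotypes, -0.78 follicular, 0.45 age-associated, -0.14 MHC class II, 0.36 survival and -0.67 cell cycle, with Top2a at -0.95, Stmn1 at -0.67 and Mcm3 at -0.08. With at least 5, isotypes were at -0.38, follicular genes -0.30 and germinal centre genes -0.99, with Timd4 at 0.70, Hmox1 at 2.29, Gbp2b at 0.97 and Dmpk at 0.50. With at least 7, chosen after seeing the data, isotypes were at -0.32, follicular genes -0.24, germinal centre genes -0.93 and interferon genes 0.091, with Hmox1 at 2.07 and Dmpk at 0.18. Without barcodes holding macrophage, neutrophil or hepatocyte transcripts the cirrhosis share was 1.36% and 98 genes were 2-fold higher, with identity at 0.18, isotypes -0.056, follicular genes 0.051, MHC class II 0.26, interferon genes 0.12 and Fcgr2b -0.11. In unmixed B cells, chosen after seeing the data, the cirrhosis share was 1.33%, IgM or IgD led in 100% of control cells and 76 genes were higher, with identity at 0.10, isotypes 0.19, follicular genes -0.11, B-1 genes 0.43, plasma cell genes -0.61, MHC class II 0.16 and interferon genes 0.057. Ratios that turned there were Igha 0.58, Timp3 -0.32, Ighg2b 2.49, Cd93 -0.32, Jchain 1.49, Fcgr2b -0.15 and Stmn1 -0.32. Several of them rest on few UMIs and are given without intervals. For Ighg2b, 14 UMIs lay in 1 cirrhosis barcode against 1 UMI in 1 control barcode, and Jchain had 1 UMI in 1 control barcode. Without the deepest B cells, above the 95th percentile, IgM or IgD led in 100% of control cells, with B-1 genes at 0.16, germinal centre genes -1.06, plasma cell genes -0.58, Igha 0.54, Timd4 0.47, Hmox1 1.65, Gbp2b 1.15, Dmpk 0.021, Jchain 0.15 and Mcm3 -0.005. With cells weighted equally 79 genes were higher, with isotypes at -0.36, follicular genes -0.12, B-1 genes 0.42, germinal centre genes -1.04, plasma cell genes -0.60 and MHC class II 0.071. With endothelial genes under 0.1%, 97 genes were higher, with isotypes at -0.27, follicular genes -0.14 and MHC class II 0.25. Scaling by the median of ratios moved all genes by -0.106 and MHC class II to -0.14, with the immediate-early median at -0.80. With plasma-cell-like barcodes included all genes moved by 0.642 and 570 genes were higher, with identity at 0.74, follicular 0.68, marginal zone 1.62, germinal centre 1.84, age-associated 0.55, plasma cell -1.94, receptor signalling 0.72, inhibitory receptors 1.09, MHC class II 1.18, MHC class I 0.47, costimulation 1.20, cytokines 1.09, chemokine receptors 0.16, transcription factors 0.58, survival 0.66, immediate-early -0.092, NF-kB 1.05, heat shock 0.73 and glycolysis 1.04, and with Ighg2b at 2.93 and Bach2 at 0.11. With no minimum level 1621 genes were higher and 524 lower, with B-1 genes at -2.65, plasma cell genes -0.78 and survival 0.35. Of genes past 2-fold, 71% were higher over all B cells, 61.6% with the median of ratios, 59.1% with the stricter endothelial limit, 57.0% without foreign transcripts, 52.0% with equal weights and 42.2% in unmixed B cells, against 88.0% with plasma-cell-like barcodes and 75.6% with no minimum.

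Depth limits single cells: at the median depth of 4332 and 4080 UMIs a gene under 100 CPM is seen in a minority of B cells, and 39 control cells bound every comparison. One library per group leaves differences between mice unmeasured.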

Other observations

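Several single barcodes among the B cells stood apart, and each is 1 cell barcode of 1 library. A cirrhosis barcode with 15394 UMIs held genes of B cell precursors: 29 UMIs of Vpreb1 and 27 of Igll1, the surrogate light chain, 14 of Dntt, which adds bases at antibody gene joins, and 7 of Rag1 and 5 of Rag2, the recombinase. It also held 62 UMIs of Vpreb3 and 39 of Ighm, 0 of Igkc, and the cell cycle genes Top2a at 36 UMIs and Mki67 at 10. It held 36 of the 58 Top2a UMIs of all cirrhosis B cells.

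A control barcode with 28300 UMIs and 140 marker UMIs held 1285 UMIs of Igha, 2668 of Igkc and 150 of Jchain, which is 0.53% of its UMIs and under the limit for plasma-cell-like barcodes. It had 189 UMIs of S100a10, a calcium-binding protein partner of annexin, 13 of Cxcr3, 12 of Spn and 8 of Zbtb32, a repressor found in memory and B-1 cells. Its macrophage count was 0, and it held 0 UMIs of Prdm1 and Sdc1, genes of plasma cells. A cirrhosis barcode with 19312 UMIs held 102 UMIs of Ednrb, the endothelin receptor B, beside 18 of Cd79a and 8 of Cr2. That barcode also held 10 UMIs of eGFP, 22 of Sparc and 23 of Cd9 among 5382 genes, and whether it is a single cell was not tested.

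Among plasma-cell-like barcodes, 1 control barcode with 39927 UMIs held 47 UMIs of Mki67 and 23 of Top2a, both genes of dividing cells; at least 3 Mki67 UMIs were found in 1 of 13 control and 2 of 8 cirrhosis barcodes, the latter at 4 and 3 UMIs. A control barcode with 54301 UMIs carried IgM with lambda light chain. Barcodes with at least 1% Jchain numbered 19 and 11 over all retained barcodes, so 6 control and 3 cirrhosis ones lay outside the rule.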
